A study of Rattus norvegicus with 18 samples.

Results

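Sleep after deprivation was examined in the neocortex of rats that had been kept from paradoxical sleep, also called REM sleep, the stage of sleep with an active cortex and no muscle tone. Neocortical RNA of rats deprived for 72 h and then left to sleep for 6 h (recovery) was compared with that of rats deprived without a break for 78 h (deprived). Every array whose title names the neocortex and either of these states was taken, which gave 6 arrays of 4 RNA pools out of 18 arrays of 12 pools in the series. The pools were the recovery and deprived pools of set 1 and of set 2, where a set is a cohort of rats with its own pool in each state and a pool is an equal-mass mixture of total RNA from 6 rats. For set 1 the RNA of the same rats was pooled and hybridised again in each state, so 3 arrays but only 2 separate pools stood on each side. A control state of rats left in the home cage, also with 2 neocortical pools from 3 arrays, shows where the levels lay without deprivation.

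All rats were male Sprague-Dawley rats housed singly and carried electrodes for EEG and EMG recording, controls included. They were killed at the same clock time. The hours of deprivation before recovery follow the sample labels (72 h), while the treatment text can also be read as 78 h followed by 6 h of sleep, and the sources used here do not settle which. By the sample labels, recovery and deprived rats differed in their last 6 h; by the other reading, recovery rats also began deprivation earlier. Deprivation used the flowerpot method, in which a rat sits on a small platform over water and is woken when its muscles relax. The method also restricts movement and is a stressor, and the home cage controls did not sit on platforms. Recovery sleep came together with an end to deprivation, so sleep and relief from the procedure and its stress cannot be told apart. The amounts of sleep in either group were not examined, so the contrast is not one of measured sleep. A pool hides the differences between its 6 rats, and p-values here measure the spread between pools. The cortex was the whole right neocortex, a mixture of cell types, in which fewer cells of a type and less RNA per cell cannot be told apart.

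By way of background, wakefulness and arousal drive the transcription of immediate-early genes in cortical neurons, among them the transcription factors Fos, Jun and Egr1 and the synaptic effector Arc, and these transcripts decay within hours once the drive ends. Glucocorticoids, the adrenal hormones released under stress, act through the nuclear receptors Nr3c1 and Nr3c2 and raise genes such as Sgk1, Fkbp5 and Tsc22d3. Clock genes of the Per and Nr1d families cycle over the day and several of them also respond to glucocorticoids and to sleep loss.

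The measured quantity was the signal of a probe set, the set of short oligonucleotides that reads 1 transcript, given here on the log2 scale. Of 31042 probe sets on the array that were not controls, 18625 lay above a filter on dim signals, and 14113 of those named 1 gene, for 10294 genes in all. Recovery and deprived arrays of the same set were alike across probe sets (correlation 0.978 to 0.99 over 5 pairs of arrays). The correlation between the arrays of 1 pool was 0.977 to 0.986 over 3 pairs, and that between the sets of 1 state was 0.969 to 0.975 over 6 pairs. Each difference was therefore taken within a set. Neocortical neuron markers were present in both states: 18 of 20 passed the filter, with summed signals of 10287 and 10281 in the recovery pools and 10150 and 10086 in the deprived pools (sets 1 and 2). Of 14 hippocampal neuron markers 8 passed, with summed signals of 1794 and 1822 against 1857 and 1852. By gene, however, 5 of these were higher and 3 lower in recovery, with a median log2 difference of 0.13. Striatal neuron markers, of which 12 of 15 passed, were lower in recovery for 9 and higher for 3, with medians of -0.21 in set 1 and -0.05 in set 2. The part of dissection in the differences below was not tested. Beta-actin signal at the 3' end over that at the 5' end, a ratio that rises as RNA degrades, was 3.18 and 2.83 in the recovery pools, 3.01 and 2.35 in the deprived pools and 2.69 and 2.61 in the control pools. That of Gapdh was 1.08 and 1.17, 1.05 and 1.15, and 1.08 and 1.12 in the same order. The part of RNA quality in the differences below was not tested.

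A single gene passed the test between recovery and deprived pools. Arc fell to a signal of 92.8 in recovery, against 174 in deprived neocortex, a level 1.87-fold lower, and the recovery level lay at that of the home cage (91.0). By limma's moderated test with the set as a block and Benjamini-Hochberg adjustment, 1 of 18625 probe sets was called at an adjusted p under 0.05, or 0.00537%. Without adjustment 849 probe sets, or 4.56% of those tested, had a p under 0.05. Of these 550 (2.95% of those tested) were lower and 299 (1.61%) higher in recovery. In the same fit 2 probe sets, or 0.0107%, were called between deprived and control pools, for Gpd1 and Arc, both higher in deprived. Between recovery and control pools 0 were called (1078, or 5.79%, at an unadjusted p under 0.05). These 3 comparisons share pools, so a gene's values in all 3 states are given side by side and the comparisons are not counted as separate evidence. Other genes are described by their values and did not pass the test.

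Arc, which encodes a protein that carries AMPA receptors off synapses and is translated near active ones, was read by probe set 1387068_at. Its log2 signals in sets 1 and 2 were 6.29 and 6.78 in recovery, 7.24 and 7.65 in deprived and 6.33 and 6.69 in control pools. The recovery and deprived pools did not overlap, and each recovery pool stood close to the control pool of its set. The means were 6.54 ± 0.34 in recovery and 7.44 ± 0.29 in deprived pools (SD, n = 2 pools each). The log2 difference was -0.94 in set 1 and -0.87 in set 2, for a fitted change of -0.91 (SE 0.102, 95% interval -1.13 to -0.68, limma adjusted p = 0.0309). Set 1 was measured again on its own arrays, with signals of 74.1 and 83.2 in recovery and 146 and 156 in deprived. Between deprived and control pools the change was 0.93 (limma adjusted p = 0.0113), and between recovery and control pools the difference was 0.03 (95% interval -0.20 to 0.25). The size of the Arc change held between -0.96 and -0.80 under all 16 alternatives, but its call did not. Some of these alternatives, such as another filter or no trend, cannot change a log2 difference. Leaving out a recovery or deprived pool leaves 1 pool in that state, which is then assumed to vary like the other groups. The call ended when any 1 of the 6 neocortical pools was left out (limma adjusted p from 0.0905 to 0.745), without the set as a block (adjusted p = 1), with no filter on dim probe sets (0.131), with no intensity trend (0.249) and with either array of set 1 alone (0.158 and 0.431).

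**Figure D1:**
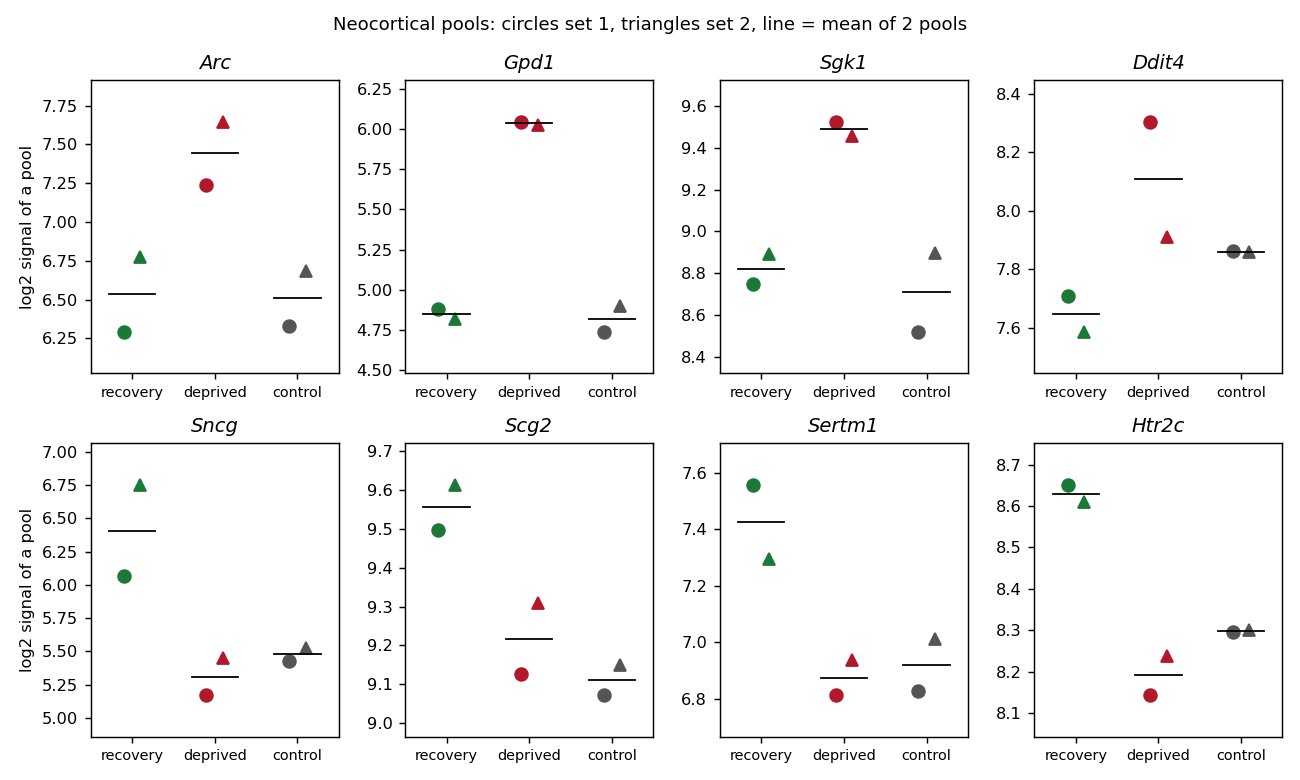
Log2 signal of each neocortical pool (y axis) for 8 genes, by state: recovery (green), deprived (red) and control (grey), with circles for set 1, triangles for set 2 and a line at the mean of 2 pools. Arc, Gpd1 and Sgk1 stand highest in the deprived pools, with recovery pools near the controls, while Sncg, Scg2, Sertm1 and Htr2c stand highest in the recovery pools; the y axes do not start at 0.

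Among the 10 leading genes lower in recovery, Gpd1, Sgk1 and Ddit4 belong to the list of glucocorticoid-responsive genes. By unadjusted p, Gpd1 and Sgk1 came next after Arc, and Nrip3, which is not of that list, came before Ddit4. Gpd1 encodes the cytosolic glycerol-3-phosphate dehydrogenase, which links glycolysis to lipid synthesis. Its probe set 1369560_at stood at 4.88 and 4.82 in recovery, 6.05 and 6.02 in deprived and 4.74 and 4.90 in control pools. Both deprived pools thus lay more than 1 log2 unit above every other neocortical pool. The difference between recovery and deprived pools was -1.19 (SE 0.167, limma adjusted p = 0.135), a signal 2.28-fold lower in recovery. The brighter probe set of the gene, 1371363_at, stood at 7.88 and 7.96 in recovery, 8.45 and 8.54 in deprived and 7.30 and 7.72 in control pools. Its recovery pools lay between the other states, with differences of -0.57 from deprived (adjusted p = 0.306) and 0.40 from control (95% interval 0.19 to 0.62). Between deprived and control pools this probe set rose by 0.98 on the log2 scale (limma adjusted p = 0.00826). The probe sets of Gpd1 thus gave the same direction and different distances from the home cage.

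Sgk1, a glucocorticoid-induced kinase that acts on ion channels and transporters, had log2 signals of 8.75 and 8.89 in recovery, 9.52 and 9.45 in deprived and 8.52 and 8.89 in control pools. Recovery and deprived pools did not overlap, and the difference was -0.67 (SE 0.110, limma adjusted p = 0.286). Ddit4, a stress-induced inhibitor of mTOR signalling, was at 7.71 and 7.59 in recovery, 8.31 and 7.91 in deprived and 7.86 and 7.86 in control pools, a difference of -0.46 (adjusted p = 0.782). Unlike those of Sgk1, both recovery pools of Ddit4 lay below both control pools. The neuronal glucose transporter gene Slc2a3 was at 5.75 and 6.37 in recovery, 6.41 and 6.82 in deprived and 6.29 and 6.53 in control pools, a difference of -0.55. A brighter probe set of Slc2a3 had a difference of -0.16.

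The remaining leading genes on the lower side were Camk4, Fam171a2, Nrip3, Ints15 and Hnrnpa2b1, each with a limma adjusted p of 0.782. Camk4, a calcium- and calmodulin-dependent kinase that activates CREB in the nucleus, was at 5.02 and 4.98 in recovery, 5.53 and 5.96 in deprived and 5.48 and 5.57 in control pools. Its recovery pools lay below those of both other states, by -0.75 from deprived and -0.52 from control, and its other probe set had a difference of -0.13 from deprived. The set 1 arrays of Camk4 read 25.5 and 41.1 in recovery, 54.4 and 39.5 in deprived and 57.9 and 34.3 in control. On array 2 recovery was above both other states, so its place in set 1 rests on array 1. Fam171a2 had a difference of -0.90 from deprived and -0.67 from control at a dim probe set, whose recovery pools (4.33 and 4.45) lay just above the filter level of 4.30. Its brighter probe set differed by only -0.12 from deprived and -0.15 from control. Ints15, a subunit of the Integrator complex that processes nascent RNA, had a difference of -0.54 from deprived and -0.07 from control. Its set 1 arrays were far apart in recovery (44.9 and 93.1, against 80.6 and 100.8 in deprived). Nrip3 had a difference of -0.58, with 2 other probe sets on the same side at -0.17 and -0.27. Its pools overlapped slightly between sets (4.84 and 5.43 in recovery, 5.42 and 6.00 in deprived). The set 1 arrays of Nrip3 read 29.6 and 27.8 in recovery and 57.2 and 32.1 in deprived, so the arrays differed in the size of the fall. For Hnrnpa2b1, a nuclear RNA-binding protein, the leading probe set gave -0.35 while 2 of the 3 others lay above 0, at 0.25 and 0.09, so its direction is not settled.

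On the higher side, Sncg stood apart. It encodes gamma-synuclein, a small cytosolic protein of neurons and axons related to alpha-synuclein. Its log2 signals were 6.07 and 6.75 in recovery, 5.17 and 5.45 in deprived and 5.43 and 5.53 in control pools. Both recovery pools lay above all 4 other neocortical pools, by 1.10 from deprived (SE 0.173, 95% interval 0.72 to 1.48, limma adjusted p = 0.272) and 0.93 from control (adjusted p = 0.367). Set 1 gave signals of 67.7 and 66.3 on its recovery arrays and 39.3 and 33.1 on its deprived arrays. The hippocampal formation of the same rats had a like difference of 1.03 (adjusted p = 0.249).

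Scg2, the secretogranin II gene, whose product is stored in dense-core vesicles and cut into the peptide secretoneurin, was at 9.50 and 9.61 in recovery, 9.13 and 9.31 in deprived and 9.07 and 9.15 in control pools. The recovery pools were the highest, 0.34 above deprived (SE 0.0734, limma adjusted p = 0.782) and 0.44 above control (95% interval 0.28 to 0.60). Bdnf, the activity-regulated neurotrophin, showed the same order at its bright probe set, with 6.54 and 6.20 in recovery, 6.05 and 6.07 in deprived and 6.01 and 5.65 in control pools. The difference of Bdnf was 0.31 (adjusted p = 0.996), while its dimmer probe set gave -0.25. Sertm1 was at 7.56 and 7.30 in recovery, 6.81 and 6.94 in deprived and 6.83 and 7.01 in control pools, a difference of 0.55 (adjusted p = 0.782) and 0.51 from control.

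The promoter of Scg2 is shown because it held one of the motifs searched, and that of Sncg because its difference was the largest of the 10 leading genes on the higher side; both were picked after the search. The sequences are the 250 bases before the annotated start, from RefSeq (GRCr8). Scg2 lies at chr9:88256867-88257116 on the minus strand and Sncg at chr16:9711337-9711586 on the minus strand. Capitals mark the cAMP response element TGACGTCA, the site of CREB, which was searched along with the E-box CACGTG of the clock and the hexamer TGTTCT (reverse AGAACA) of the glucocorticoid response element, on both strands.
Scg2: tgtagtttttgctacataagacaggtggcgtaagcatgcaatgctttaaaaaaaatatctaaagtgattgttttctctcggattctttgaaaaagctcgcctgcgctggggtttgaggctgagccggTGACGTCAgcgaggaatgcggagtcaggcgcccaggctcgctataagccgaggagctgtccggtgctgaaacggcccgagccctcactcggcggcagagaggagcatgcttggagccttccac
Sncg: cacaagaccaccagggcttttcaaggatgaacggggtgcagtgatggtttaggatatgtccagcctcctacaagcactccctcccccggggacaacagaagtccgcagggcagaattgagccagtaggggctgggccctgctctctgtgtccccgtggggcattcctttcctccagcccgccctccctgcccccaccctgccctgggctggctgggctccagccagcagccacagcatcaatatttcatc
The cAMP response element of Scg2 starts 123 bases before the start, and none of the searched words is in the window of Sncg, nor in those of Sertm1, Htr2c and Mas1. Over all 33469 promoters of the table, 1.59% hold the cAMP response element, 5.59% the E-box and 17.5% the hexamer. Of the 20 leading genes 14 had a promoter in the table, of which 1 (Scg2) held the cAMP response element, 0 the E-box and 1 (Ints15) the hexamer. A match is a run of letters and was not tested as a binding site, and no match says only that these letters are not in this window.

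At their leading probe sets, Tfrc, Pak3, Dpp9 and Ntng1 lay lower in the deprived pools than in both other states on average. Tfrc, the transferrin receptor that brings iron into cells, was at 9.13 and 9.20 in recovery, 8.84 and 8.90 in deprived and 9.08 and 9.22 in control pools. Its difference was 0.30 from deprived (SE 0.0683, limma adjusted p = 0.782) and 0.01 from control (95% interval -0.14 to 0.16), and the other probe set gave 0.23 from deprived and 0.15 from control. Pak3, a kinase of dendritic spines that acts on actin, was at 8.20 and 8.19 in recovery, 7.86 and 7.73 in deprived and 8.08 and 8.35 in control pools. All 3 probe sets of Pak3 were higher in recovery than in deprived, by 0.40, 0.25 and 0.10, but the other two did not show the deprived pools below control. Their differences between deprived and control pools were 0.03 and 0.06, and between recovery and control pools 0.28 (95% interval 0.05 to 0.51) and 0.17. The peptidase gene Dpp9 differed by 0.61 from deprived and 0.05 from control. Ntng1, the adhesion protein netrin-G1, differed by 0.41 from deprived and 0.15 from control.

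Htr2c, a serotonin receptor of neurons and of the choroid plexus, had log2 signals of 8.65 and 8.61 in recovery, 8.14 and 8.24 in deprived and 8.30 and 8.30 in control pools. The recovery pools were the highest and the difference was 0.44 (SE 0.103, limma adjusted p = 0.782), with 0.23 at the other probe set. Choroid plexus markers, of which 5 of 12 passed the filter, were higher in recovery than in deprived for 5 of 5, with a median difference of 0.25 and summed signals of 2968 and 1299 in recovery, 2250 and 992 in deprived and 2576 and 618 in control pools. The markers Otx2, Kl, Clic6 and Kcnj13 were not among the 5. Ttr, the main transcript of that tissue, was at 11.05 and 9.50 in recovery, 10.57 and 8.91 in deprived and 10.80 and 6.84 in control pools, so its level differed far more between sets than between recovery and deprived. The part of choroid plexus RNA in the Htr2c difference was not tested. Ddx6, an RNA helicase of processing bodies, had a difference of 0.32 at its leading probe set, with -0.32 and -0.15 at the others. Mas1, a receptor for an angiotensin fragment, had one of 0.62, but its pools overlapped (5.68 and 6.09 in recovery, 4.68 and 5.85 in deprived).

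**Figure D2:**
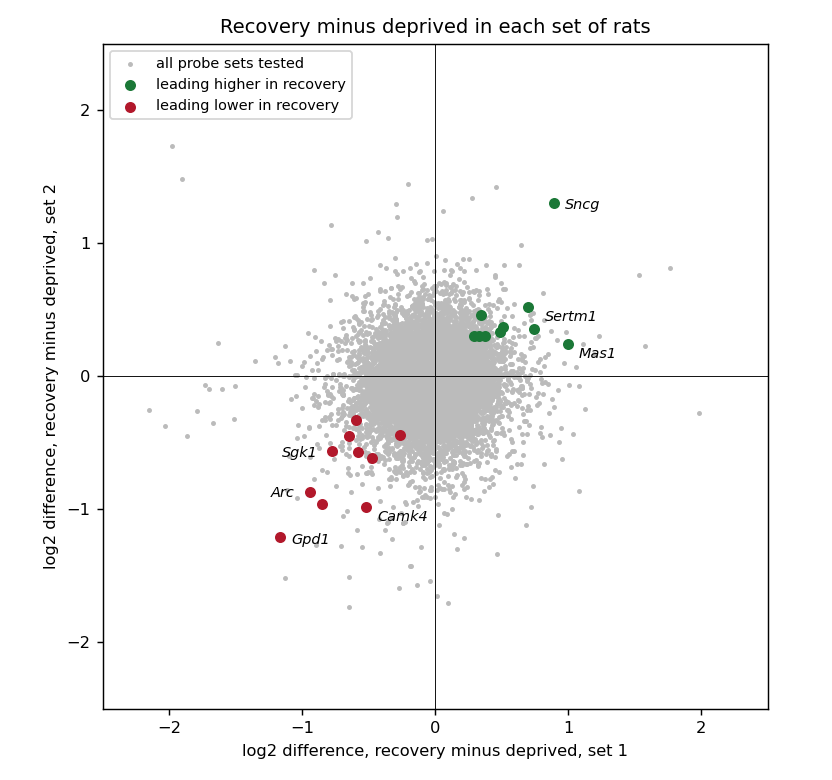
Log2 difference between recovery and deprived neocortex in set 1 (x axis) and set 2 (y axis) for all 18625 probe sets tested (grey), with the 10 leading genes higher (green) and the 10 lower (red) in recovery. The leading genes were chosen to have the same sign in both sets and a mean signal above the filter level in both states. Of all probe sets, 0 differed by more than 1.5 the same way in both sets.

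Lists of genes were described by counts and medians, beside those of all 10294 named genes at their brightest probe set, of which 47.7% were lower in recovery, with a median difference of 0.01. Of these genes 2.21% were lower and 1.82% higher at an unadjusted p under 0.05. Recovery and deprived pools did not overlap for 23.4% of all probe sets. No list was tested as a set.

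Of the glucocorticoid-responsive genes 24 of 29 passed the filter, and 21 were lower and 3 higher in recovery than in deprived, with a median difference of -0.15 (-0.15 in set 1 and -0.12 in set 2). By unadjusted p under 0.05, 9 were lower and 0 higher, and 0 passed the adjusted test. The median of the list was 0.19 between deprived and control pools and 0.04 between recovery and control pools. The list was chosen with earlier results of these deprived and control pools known, so its direction is not independent evidence. Besides Gpd1, Sgk1 and Ddit4, the 9 held Pdk4, Cdkn1a, Cebpb, Bcl6, Tsc22d3 and Fkbp5, named after their values were seen. Pdk4, which inhibits pyruvate dehydrogenase, had a difference of -0.77 at log2 signals of 4.61 and 4.15 in recovery against 5.55 and 4.75 in deprived pools, of which the recovery pool of set 2 lay under the filter level of 4.30. Tsc22d3, an anti-inflammatory leucine zipper protein, was at 8.44 and 8.77 in recovery, 8.83 and 8.94 in deprived and 8.43 and 8.83 in control pools. Fkbp5, a co-chaperone that restrains the glucocorticoid receptor, was at 6.79 and 6.14 in recovery, 6.98 and 6.47 in deprived and 6.62 and 6.13 in control pools, a difference of -0.26 (limma adjusted p = 0.996). For both, each recovery pool was lower than the deprived pool of its set, and the differences from control were -0.03 (Tsc22d3) and 0.09 (Fkbp5). The receptors differed by 0.11 (Nr3c1) and 0.07 (Nr3c2), and Sult1a1, a sulfotransferase, stayed at 7.72 and 7.12 in recovery against 7.71 and 7.26 in deprived and 6.66 and 6.72 in control pools.

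Immediate-early transcription factors had 18 of 26 members above the filter, of which 14 were lower and 4 higher in recovery, with a median difference of -0.13 (-0.09 in set 1 and -0.15 in set 2). Of these 3 were lower by unadjusted p (Jun, Ier5 and Nr4a2) and 0 passed the adjusted test. For Nr4a2 the other probe set had the opposite sign, at 0.23 (0.19 in set 1 and 0.26 in set 2), so its direction is not settled. Fos was at 6.49 and 7.12 in recovery, 7.04 and 7.51 in deprived and 5.87 and 6.77 in control pools. In each set Fos in recovery stood between the deprived and the control pool, with differences of -0.47 from deprived (SE 0.219, limma adjusted p = 0.996) and 0.48 from control. Nr4a1, an orphan nuclear receptor, showed the same order, with 7.31 and 7.25 in recovery, 7.41 and 7.68 in deprived and 6.98 and 6.92 in control pools. Jun was at 7.61 and 7.91 in recovery, 8.05 and 8.06 in deprived and 7.88 and 7.89 in control pools, and its 2 other probe sets gave -0.20 and -0.39. Egr1 and Egr2 kept close to the deprived level: Egr1 was at 9.90 and 9.94 in recovery, 9.97 and 10.07 in deprived and 9.55 and 9.82 in control pools. Egr2 differed by -0.06 from deprived and 0.72 from control (adjusted p = 0.820), and its sign against deprived turned under 3 alternatives.

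Activity-regulated effectors, a list of genes for effector proteins such as Arc, were divided. Of these 23 of 30 passed the filter, with 13 lower and 10 higher in recovery. The median difference was -0.03 (0.06 in set 1 and -0.05 in set 2). Arc was the called member. By unadjusted p 3 were lower (Arc, Gadd45b and Dusp6) and 3 higher (Scg2, Bdnf and Rgs2). Dusp1, a phosphatase of MAP kinases, was at 7.56 and 8.29 in recovery, 8.39 and 8.35 in deprived and 7.50 and 8.13 in control pools, a difference of -0.45 that came mostly from set 1. Homer1, a scaffold of glutamate receptors, differed by -0.12 at its brightest probe set. Over the mean of the sets it was lower at all 5 probe sets, by up to -0.44. That largest difference came mostly from set 2 (-0.04 in set 1 and -0.85 in set 2). Another probe set of Homer1 had opposite signs, at 0.42 in set 1 and -0.58 in set 2, while the others were lower in both sets. After the 6 h of recovery Arc and Sgk1 thus lay near the home cage level, and Fos and Nr4a1 between the deprived and home cage levels. Scg2 lay above both. Bdnf lay above both at its bright probe set only. Its dimmer probe set lay between them, at -0.25 from deprived and 0.45 from control, so its place is not settled.

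**Figure D3:**
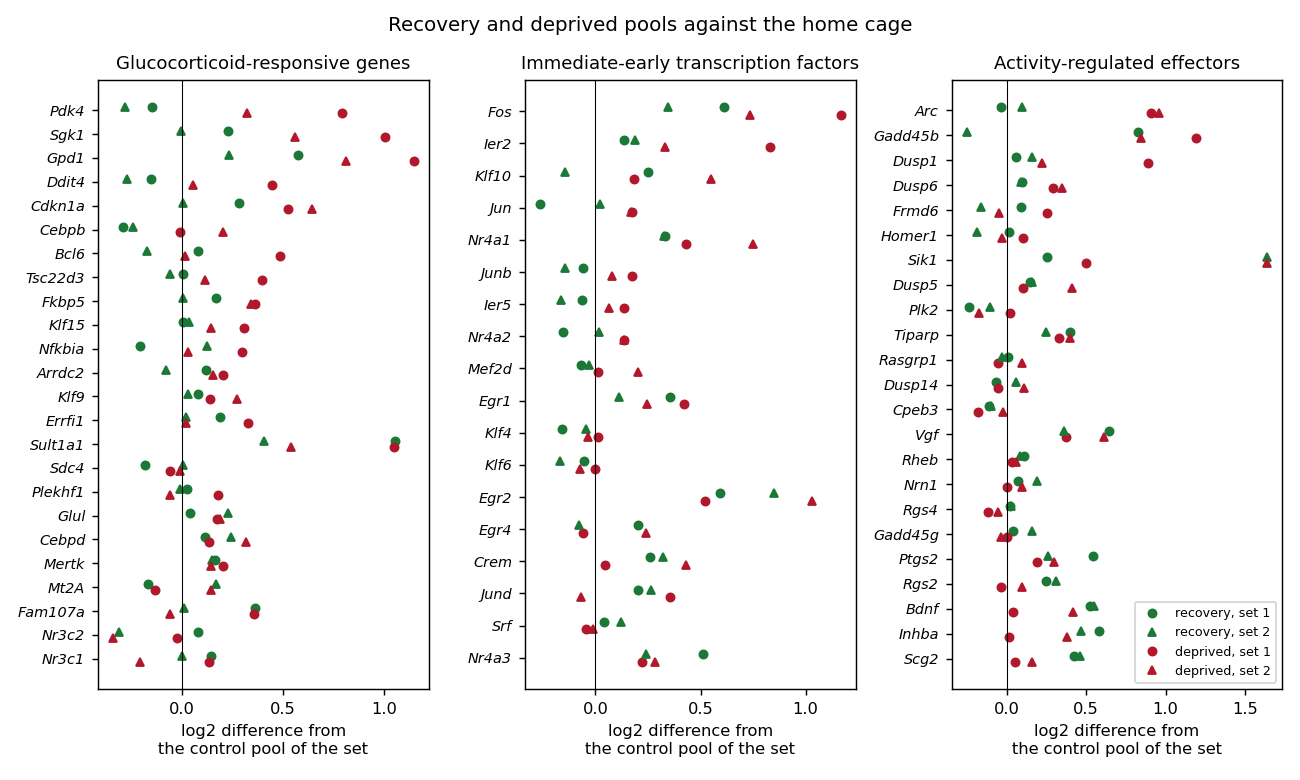
Log2 difference of each recovery pool (green) and deprived pool (red) from the control pool of the same set (x axis) for the members of 3 lists that passed the filter, with circles for set 1 and triangles for set 2, ordered by recovery minus deprived. Sgk1, Gpd1 and Arc have deprived pools to the right of their recovery pools, and Scg2, Inhba and Bdnf have recovery pools to the right; both colours share the control pool as their zero.

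Circadian clock genes had 20 of 23 members above the filter, with 15 lower and 5 higher in recovery than in deprived and a median difference of -0.10 (-0.15 in set 1 and -0.03 in set 2). The median was -0.16 against the home cage, with 16 of 20 below it, and all rats died at the same clock time. By unadjusted p 3 were lower and 0 passed the adjusted test. Per1, a repressor of the core loop, was at 5.40 and 5.88 in recovery, 6.07 and 6.32 in deprived and 6.00 and 6.35 in control pools. Its recovery pools were the lowest in both sets, by -0.56 from deprived (SE 0.151, limma adjusted p = 0.944) and -0.53 from control. The set 1 arrays of Per1 read 27.1 and 65.7 in recovery, 77.6 and 58.1 in deprived and 69.5 and 58.6 in control. On array 2 recovery was not the lowest, so its place in set 1 rests on array 1. The difference from deprived ran from -0.98 to -0.14 under the alternatives. Bhlhe40, a repressor induced by light, hypoxia and glucocorticoids, was at 5.97 and 6.56 in recovery, 6.51 and 7.09 in deprived and 6.23 and 7.01 in control pools. Each recovery pool was below the other pools of its set, with a difference of -0.53 from deprived (adjusted p = 0.836), although the groups overlapped between sets. On array 2 of set 1 Bhlhe40 read 64.8 in recovery and 57.8 in control, so its place below control in set 1 rests on array 1. Per2 differed by -0.24, Nr1d1 by -0.14 and Dbp by -0.06, and the signs of Nr1d1 and Dbp turned when a pool was left out. The promoter of Bhlhe40 (GRCr8, chr4:143174200-143174449, plus strand, RefSeq) is shown since it held both the E-box and the hexamer of the glucocorticoid response element, in capitals, while that of Per1 held none of the searched words.
Bhlhe40: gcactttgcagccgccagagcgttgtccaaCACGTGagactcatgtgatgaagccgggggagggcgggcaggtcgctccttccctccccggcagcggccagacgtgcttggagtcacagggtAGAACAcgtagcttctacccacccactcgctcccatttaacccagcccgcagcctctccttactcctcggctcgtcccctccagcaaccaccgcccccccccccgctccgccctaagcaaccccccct
The E-box starts 220 bases and the hexamer 128 bases before the annotated start.

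Genes of red cells were lower in recovery. Of 10 listed genes 3 passed the filter and all 3 were lower in both sets, with summed signals of 816 and 1054 in recovery, 1738 and 1591 in deprived and 2206 and 1678 in control pools. Hbb, a beta-globin gene whose probe set may also read its close copies, was at 9.50 and 9.87 in recovery, 10.60 and 10.47 in deprived and 10.96 and 10.57 in control pools. The difference was -0.85 from deprived (SE 0.201, limma adjusted p = 0.782) and -1.08 from control (adjusted p = 0.367), and that of the hippocampal formation was -0.62. Hba-a3 and Alas2, the enzyme of haem synthesis in red cells, differed by -0.67 and -1.01 from deprived. The difference of Alas2 came mostly from set 1 (-1.67 in set 1 and -0.35 in set 2). The recovery pool of set 1 for Alas2, at 4.11, lay under the filter level. How far blood left in the tissue moved other genes was not tested. Endothelial markers, of which 14 of 16 passed, were higher for 7 and lower for 7, with a median of 0.01.

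Inflammation and innate immune genes were lower for 16 and higher for 3 of 19, with a median of -0.15, but -0.32 in set 1 and -0.06 in set 2. C3 was at 6.38 and 5.52 in recovery, 7.36 and 5.60 in deprived and 7.76 and 6.01 in control pools, so its difference of -0.53 came from set 1. C1qc, a complement subunit of microglia, was at 5.89 and 5.82 in recovery against 6.58 and 6.10 in deprived pools. Microglia markers as a whole were lower for 9 and higher for 3 of 12, with medians of -0.25 in set 1 and 0.02 in set 2 and summed signals of 1298 and 1175 in recovery, 1534 and 1191 in deprived and 1678 and 1058 in control pools. The part of microglial RNA in the complement differences was not tested.

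All 5 cold-inducible RNA-binding protein genes were higher in recovery than in deprived over the mean of the sets, and 3 of them in both sets. The median difference was 0.05 and turned to -0.02 under 1 alternative. Rbm3, which is induced by mild cooling, was at 9.19 and 9.36 in recovery, 8.91 and 9.04 in deprived and 9.26 and 9.50 in control pools. Its recovery pools lay above both deprived pools and, set by set, below control, with a difference of 0.30 from deprived (SE 0.0832, limma adjusted p = 0.961). Cirbp differed by 0.05 with both other probe sets below 0, and its sign turned under 3 alternatives.

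Neuropeptides and trophic factors were higher for 15 and lower for 8 of 23, with a median of 0.06 (0.03 in set 1 and 0.09 in set 2). Neuromodulator receptors were lower for 16 and higher for 8 of 24, with a median of -0.10 (-0.11 and -0.06), among them the muscarinic receptor gene Chrm1 at -0.44. Chrm1 differed by -0.16 in set 1 and -0.72 in set 2. Of the GABA genes Gad2, a GABA-synthesising enzyme, was at 6.16 and 6.76 in recovery, 6.55 and 7.08 in deprived and 6.55 and 6.69 in control pools, and the receptor subunit gene Gabra5 differed by 0.17. The potassium channel genes Kcnq3 and Kcnma1 differed by -0.67 and 0.18, with -0.07 at the other probe set of Kcnma1, and Kcnq3 was at 6.05 and 5.20 in recovery against 6.29 and 6.30 in deprived pools. The synaptic genes Rims1, Syt11 and Dlg4 differed by -0.22, -0.40 and -0.21, and Gria3, an AMPA receptor subunit, by 0.18. The other probe sets gave -0.31 and 0.03 for Dlg4 and -0.13 for Gria3. The difference of Syt11 came mostly from set 2 (-0.04 in set 1 and -0.76 in set 2).

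Housekeeping processes showed small differences. Cytosolic ribosomal protein genes were higher for 16 and lower for 1 of 17, but with a median of only 0.03 (0.00 in set 1 and 0.06 in set 2), and Rpl27 and Rpl19 differed by 0.14 and 0.11. Genes of mitochondrial respiration had a median of 0.02 (26 genes, Ndufs4 at -0.27 and Atp5f1c at 0.09), translation factors 0.02 (23 genes, Eif3f at 0.13 and Eef1d at 0.12) and cholesterol synthesis 0.02 (20 genes, Pmvk at 0.13 and Ebp at -0.22). Ndufs4 had opposite signs in the sets, at 0.04 in set 1 and -0.58 in set 2. Endoplasmic reticulum chaperones and related stress genes were split 10 to 10 with a median of -0.01, and Hspa5, the main chaperone of that compartment, differed by 0.03, Pdia4 by -0.26 and Ddit3 by 0.27. Cytosolic heat shock proteins had a median of 0.00, with Hspa2 at 0.42, where the other probe set gave -0.08, and Cryab at -0.18. The glucose and lactate transporters Slc2a1 and Slc16a1 differed by -0.21 and -0.18, and the antioxidant genes Prdx6 and Gclm by -0.27 and -0.28. Each gene named here had a limma adjusted p of 0.996. Astrocyte markers were higher for 9 of 12 with a median of 0.08, and oligodendrocyte markers lower for 10 of 18 with a median of -0.01.

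**Figure D4:**
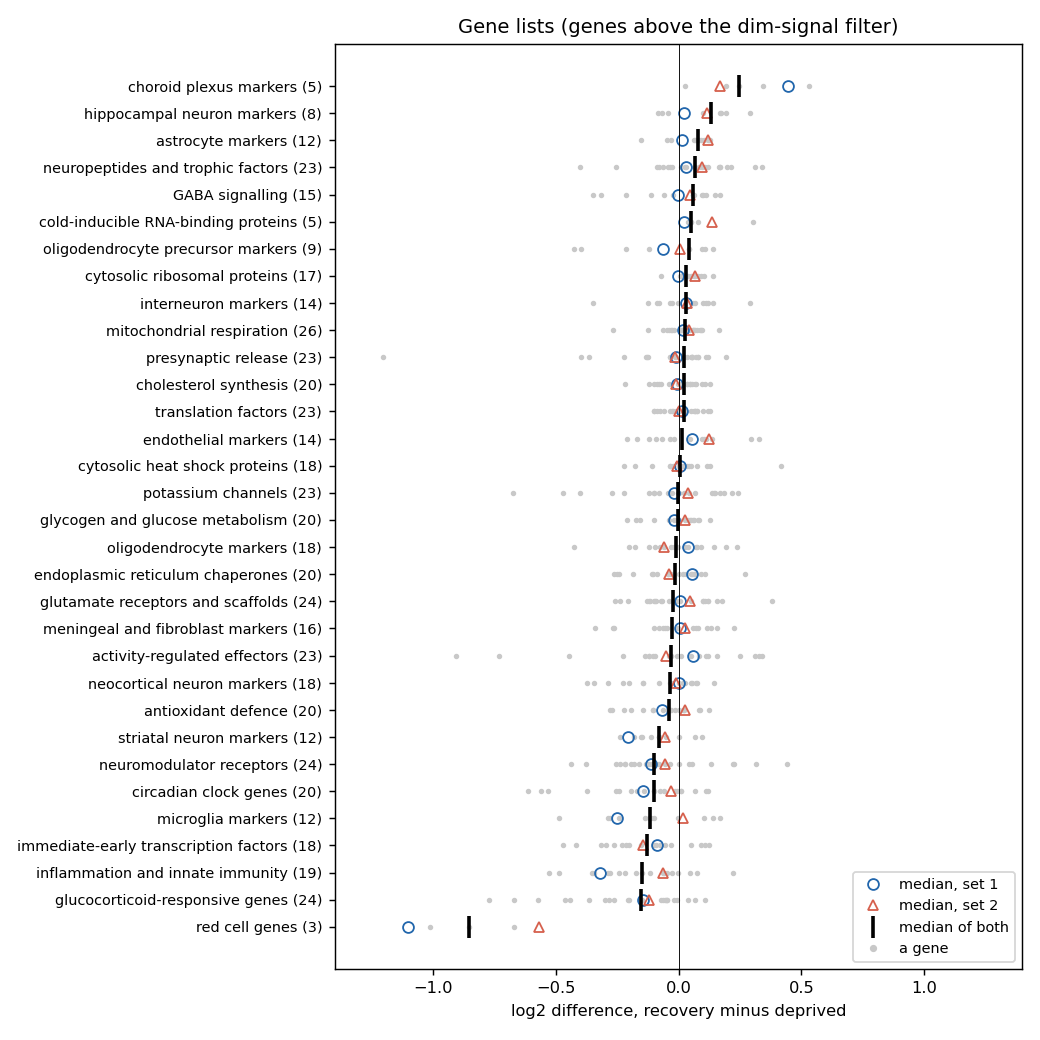
Log2 difference between recovery and deprived neocortex (x axis) for the genes of 32 lists (grey points; number of genes above the filter in brackets), with the list median in set 1 (blue circles), in set 2 (red triangles) and of the fitted differences (black bars). Red cell genes lie lowest at -0.85, glucocorticoid-responsive, immediate-early and clock genes lie below 0 in both sets, and the inflammation and microglia medians lie apart between the sets.

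The same contrast in the hippocampal formation of these rats gave other values for some leading genes. Arc there was at 7.18 and 7.21 in recovery against 6.64 and 6.67 in deprived pools, a difference of 0.54 (limma adjusted p = 0.309), opposite in sign to that of the neocortex. The hippocampal minus the neocortical difference was 1.45 for Arc (limma adjusted p = 0.775 over all probe sets). Of 18625 probe sets 0 were called in that test, and 1128 had an unadjusted p under 0.05. Sgk1 and the bright probe set of Gpd1 were lower in recovery there too, by -0.30 and -0.43, and Fos and Nr4a1 were higher, each by 0.50.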

How the data were processed

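Pools of total RNA from 6 rats, of the right neocortex or the hippocampal formation, were hybridised to Affymetrix rat arrays, per the labels' protocols. The authors deposited linear probe set intensities made with MAS5, per the submitters' processing notes; its version and settings are not given in the sources used here. The trimmed mean (2% at each end) was near 100.03 on all 18 arrays, so the values were already scaled, and the number of arrays limits the precision.

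Signals were raised to a floor of 1 and log2-transformed, with no further normalization. After the 57 control probe sets were removed and the arrays of a pool averaged, the lowest 40% by mean over 12 pools (a signal under 19.7, log2 4.30) were left out. The fit used limma 3.58.1 in R 4.3.3 (lmFit, eBayes with trend) on all 12 pools, with 6 group means and the set as a block in each structure (4 residual and 7.58 prior degrees of freedom), and Benjamini-Hochberg over 18625 probe sets. A probe set was called at an adjusted p under 0.05. Figures used matplotlib 3.10.9.

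The set number comes from the labels, which name sets of 6 rats. Pools with the same number deviated together from their group means (correlation of recovery with deprived 0.587, recovery with control 0.540, deprived with control 0.539).

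Of the probe sets that were not controls, 20826 had 1 symbol in the platform annotation, 436 several and 9780 none, and 20758 matched a gene identifier with 0 symbols changed. Named were the called probe sets, the 10 with the smallest p each way among those with the same sign in both sets, the called members or the 2 with the smallest p of each process list, and a fixed list of names; other list members were chosen after their values were seen. A gene in a list was read by its brightest probe set. Members and lists were chosen with earlier results of these data known. The test of the difference between structures was added after the data were seen. The alternatives were no block, neocortical pools only, other filters, quantile normalization, 16 added to the signal, no trend, arrays kept separate, either array of set 1 and leaving out each pool. The scripts were tested on simulated data.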

Additional observations from a re-analysis of the deposited data

Results flagged for a closer look

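Arc is listed here because its difference between recovery and deprived pools was not the same in the 2 structures. The log2 difference was 0.54 in the hippocampal formation and -0.91 in the neocortex, and hippocampal minus neocortical gave 1.45, with both sets higher in the hippocampal formation and both lower in the neocortex. The test of this difference, added after the data were seen, gave an adjusted p of 0.775 over all probe sets by limma, so it did not pass.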

How the results depend on the processing

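Each of the 3 comparisons was refitted under 16 alternatives. Without the replicate block, 0 probe sets were called for recovery against deprived, 0 for deprived against control and 0 for recovery against control. With the 6 neocortical pools only, 2 (Arc and an unnamed probe set), 8 and 1 were called in the same order. No filter on dim probe sets gave 0 for recovery against deprived and 0 for deprived against control, as did no intensity trend (0 and 0). With 16 added to the signal, 4 were called for deprived against control. Keeping the arrays separate, with the replicate block, called 422, 402 and 838 probe sets, at an estimated correlation within pools of -0.55, so those p-values rest on technical arrays. With technical array 1 or 2 of set 1 alone, 0 and 0 were called for recovery against deprived and 1 and 1 for deprived against control. Leaving out 1 pool at a time gave 0 to 2 calls for recovery against deprived (without recovery replicate 2 Emg1 and Rpl3, not Arc), 0 to 3 for deprived against control and 0 to 3 for recovery against control. Of 1098 values of named probe sets under alternatives 15 had the other sign, from 7 probe sets. Some alternatives, such as another filter, no trend or neocortical pools only, cannot change a log2 difference. The leading probe sets were also chosen for the same sign in both sets, so the low count of reversals was partly fixed beforehand. Leaving out 1 pool at a time, the log2 difference ran from -0.332 to 0.0531 for Nr1d1, -0.140 to 0.0188 for Dbp, -0.0972 to 1.16 for Ttr, -0.214 to 0.312 for Cirbp, -0.0388 to 0.196 for Srsf5, -0.246 to 0.135 for Egr2 and -0.0849 to 0.143 for Hspa5. Hspa5 was also at -0.0158 after quantile normalization and -0.00649 with technical array 2 only. With arrays separate Cirbp was at -0.106 and Egr2 at 0.0247, and Egr2 was at 0.0954 with technical array 1 only. Of 32 list medians 8 kept their sign under all alternatives: glucocorticoid-responsive (-0.181 to -0.0709), immediate-early (-0.190 to -0.0908), clock, red cell, neuromodulator receptor, neuropeptide, mitochondrial and astrocyte genes. The inflammation median ran from -0.394 to 0.0183 and the choroid plexus median from -0.0858 to 0.630. The cause of these dependences was not tested.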

Other observations

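Some probe sets differed strongly between recovery and deprived pools in 1 set of rats. In set 1, 17 probe sets differed by more than 1.5 log2 units, 13 of them lower in recovery, and 9 did in set 2; 0 differed by that much the same way in both. These were picked for their size after the values were seen. Sv2b, a synaptic vesicle glycoprotein gene, was at 8.66 and 8.47 in recovery, 10.82 and 8.73 in deprived and 10.53 and 10.88 in control pools (sets 1 and 2) at its bright probe set, so that the deprived pools were split. The other probe set of Sv2b was at 8.95 and 9.41 in recovery, 9.21 and 9.61 in deprived and 9.38 and 9.45 in control pools. Car3, a carbonic anhydrase gene of muscle and fat, had log2 differences of -1.90 in set 1 and 1.49 in set 2. Emg1, a ribosome biogenesis gene, was at 2.04 and 5.43 in recovery against 4.08 and 5.81 in deprived pools, and all 3 of its pools of set 1 (control at 4.25) lay under the filter level of 4.30.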
